A study of Mus musculus with 4 samples.

Results

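The ETS genes encode transcription factors that share a DNA-binding domain and recognise short motifs around the bases GGAA. Members were the rows of the 4 expression tables whose gene symbol was Spi1, Etv5, Etv6, Ets1, Ets2, Elf1, Elf2, Fli1, Elk3 or Gabpa, and all 10 were found among the 17478 genes listed. The tables come from RNA sequencing of mouse T helper cells. Naive CD4+ cells (CD44 low, CD62L high) were sorted from spleen and lymph nodes of C57BL/6 mice 6 to 8 weeks old, stimulated with antibodies to CD3 and CD28, and kept for 3 days in a Th9 medium, which drives interleukin 9 production. The wild-type group had 2 libraries and the Bfar knockout group had 2. The knockout is given as BFAR-/- in one label and as a deficiency restricted to T cells in another, and neither the driver of the deletion nor any pooling of mice is stated there. The labels do not say whether each library is from its own mouse, and p-values here cover the spread between libraries alone, which may be technical.

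ETS factors differ in partners and in use. PU.1, encoded by Spi1, works mainly in myeloid and B cells and is also described as an activator of Il9 in Th9 cells, as is ETV5, a member of the PEA3 group. ETS1 is a principal ETS factor of T cells, ELK proteins join serum response factor at promoters that respond to ERK signalling, and GABPA pairs with a beta subunit. The comparisons made here were the abundance of the members relative to each other and their level in the knockout against wild type.

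Depth was alike, at 19058009 to 19782923 expected counts per library, where 3 counts equal 0.151 to 0.158 CPM (counts scaled to library size with TMM factors). Bfar itself fell from 36.4 and 32.9 CPM in wild type to 8.45 and 7.79 CPM in the knockout. Of the T cell markers, Cd3e, Cd3d, Cd3g, Cd4, Lck and Cd28 were abundant (28.8 to 228.8 FPKM). Marker sums of B cells (4.32 to 5.16 FPKM), of macrophages, monocytes and neutrophils (3.91 to 4.47 FPKM) and of dendritic cells (1.60 to 2.03 FPKM) were low in every library. The sum was 0.70 to 1.09 FPKM for NK and innate lymphoid cells. It was higher for CD8 T cells, at 6.54 to 7.46 FPKM. Nearly all of that was Cd8b1, at 6.06 to 7.02 FPKM, while Cd8a was low, at 0.41 to 0.66 FPKM. In bulk RNA, fewer cells of a type and less RNA per cell cannot be told apart.

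The promoters of Il9, which PU.1 and ETV5 are described to activate, and of the members with a changed level that the RefSeq promoter table holds are shown first, since GGAA is the core these factors read. Each is a RefSeq window of 300 bases around the annotated start (GRCm38.p6), most of it upstream, and runs 5′ to 3′ on the gene's strand, with GGAA, or TTCC for the other strand, in capitals.
Il9 (chr13:56482208-56482507, minus strand): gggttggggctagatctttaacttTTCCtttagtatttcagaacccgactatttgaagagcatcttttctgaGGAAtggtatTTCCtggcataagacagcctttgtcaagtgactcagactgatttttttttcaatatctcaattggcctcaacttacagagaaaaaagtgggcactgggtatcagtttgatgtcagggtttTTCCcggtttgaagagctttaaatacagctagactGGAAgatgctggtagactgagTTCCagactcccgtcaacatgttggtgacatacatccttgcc
Ets2 (chr16:95702157-95702456, plus strand): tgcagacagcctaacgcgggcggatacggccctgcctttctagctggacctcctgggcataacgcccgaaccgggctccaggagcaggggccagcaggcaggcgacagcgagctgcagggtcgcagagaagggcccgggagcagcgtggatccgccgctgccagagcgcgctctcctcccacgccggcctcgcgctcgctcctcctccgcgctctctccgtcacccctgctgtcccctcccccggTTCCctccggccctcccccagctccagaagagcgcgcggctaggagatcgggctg
Elf1 (chr14:79480944-79481243, plus strand): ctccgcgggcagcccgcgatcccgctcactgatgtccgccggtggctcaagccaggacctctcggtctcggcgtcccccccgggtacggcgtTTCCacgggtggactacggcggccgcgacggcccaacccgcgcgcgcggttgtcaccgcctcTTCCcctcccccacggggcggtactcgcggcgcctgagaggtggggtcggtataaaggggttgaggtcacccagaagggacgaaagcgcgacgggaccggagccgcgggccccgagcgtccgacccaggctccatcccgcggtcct
Elk3 (chr10:93311110-93311409, minus strand): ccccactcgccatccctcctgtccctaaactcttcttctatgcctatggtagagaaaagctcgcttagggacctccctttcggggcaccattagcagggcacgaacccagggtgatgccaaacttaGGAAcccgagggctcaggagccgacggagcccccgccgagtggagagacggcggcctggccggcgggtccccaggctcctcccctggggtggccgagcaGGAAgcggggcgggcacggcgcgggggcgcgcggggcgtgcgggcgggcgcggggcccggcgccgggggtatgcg
The Il9 window held 6 GGAA cores, counting both strands, 5 of them upstream of the start. Ets2 held 1, Elf1 held 2 at the start shown and Elk3 held 2. Of all 32851 promoter windows of that length, 96.0% held at least 1 GGAA and the median was 3, so a core alone sets no promoter apart. The longer forms CGGAAG (in 16.9% of windows) and GGAAGT (in 23.8%), both of which contain GGAA, were in none of these 4 windows. The Gabpa window held 1 CGGAAG and 1 GGAAGT among 5 cores, and the downstream Elf2 start held 2 and 1 among 6. The downstream Elf1 start (chr14:79515424-79515723) held 1 GGAAGT, which was its single core. Of the 2 Etv5 starts, the upstream window held no GGAA and the downstream window held 6, with GGAAGT 2 times among them. Promoter entries were found for 7 of the 10 members, all except Spi1, Ets1 and Fli1. A match describes the letters only.

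Within the family, Ets1 transcripts led by a wide margin and Spi1 transcripts were close to absent. Levels between genes were compared in FPKM (fragments per kilobase of transcript, scaled to library depth). Ets1 (gene 23871, chromosome 9, 32636241 to 32757820) had 117.5 and 121.7 FPKM in wild type and 138.4 and 141.0 in the knockout. That was 41.7%, 42.8%, 45.2% and 45.3% of the summed FPKM of the 10 members in the same 4 libraries, a mean share of 42.3% ± 0.775 in wild type and 45.2% ± 0.0679 in the knockout (SD, n = 2). Among all listed genes Ets1 stood at the 96.5 to 97.4 percentile of FPKM.

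In wild type the order below Ets1 was Elk3 (46.3 ± 1.64 FPKM, mean ± SD, n = 2), Elf1 (35.1 ± 0.332), Etv6 (24.98 ± 0.212), Fli1 (17.1 ± 0.106), Gabpa (15.4 ± 0.233), Elf2 (10.8 ± 0.424), Ets2 (8.82 ± 0.127), Etv5 (4.61 ± 0.0495) and Spi1. Every neighbouring pair in that order was separated in both wild-type libraries. In the knockout 2 places changed hands. Elf1 (43.4 ± 1.12) lay above Elk3 (41.5 ± 1.42), and Ets2 (11.2 ± 0.735) lay above Elf2 (10.6 ± 0.212). The Elf1 and Elk3 values did not overlap, but lay close, with a lowest Elf1 value of 42.63 and a highest Elk3 value of 42.47 FPKM. The Ets2 and Elf2 values overlapped. The ratio of Elf1 to Elk3 was 0.744 and 0.771 in wild type and 1.004 and 1.09 in the knockout.

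**Figure D1:**
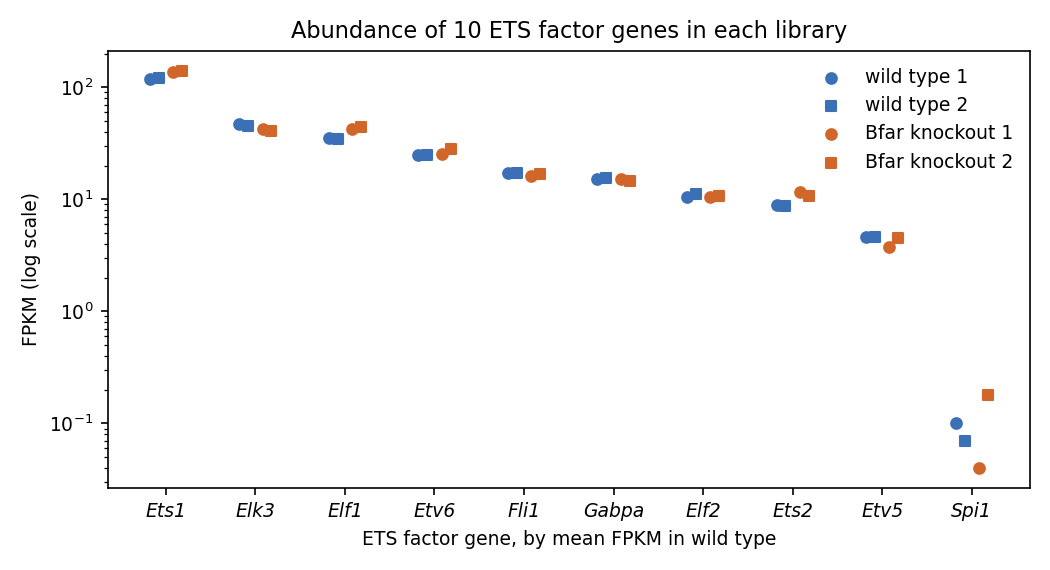
FPKM (log axis) of the 10 ETS factor genes in each library, 1 point per library, ordered by the wild-type mean. Ets1 lies highest, at 117.5 to 141.0 FPKM, and Spi1 lowest, at 0.04 to 0.18 FPKM.

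Across the transcriptome 26.8% of the 12677 tested genes passed the edgeR quasi-likelihood test at an adjusted p of 0.05, 13.6% upward and 13.2% downward. These 3398 calls became 2139 without wild type replicate 1, 1894 without Bfar knockout replicate 1 and 1441 without Bfar knockout replicate 2. Of the 10 members 9 passed the filter on low counts, and of these 3 rose (Ets1, Ets2, Elf1) and 1 fell (Elk3). The median log2 fold change of the 9 was -0.03, beside -0.002 over all tested genes. The genotypes did not overlap in CPM for 6 of the 9 members, against 63.5% of all tested genes, so separation between the groups was as common as elsewhere. Fold changes of the 9 lay between 0.896 and 1.28, and the median absolute log2 fold change over all tested genes was 0.137.

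**Figure D2:**
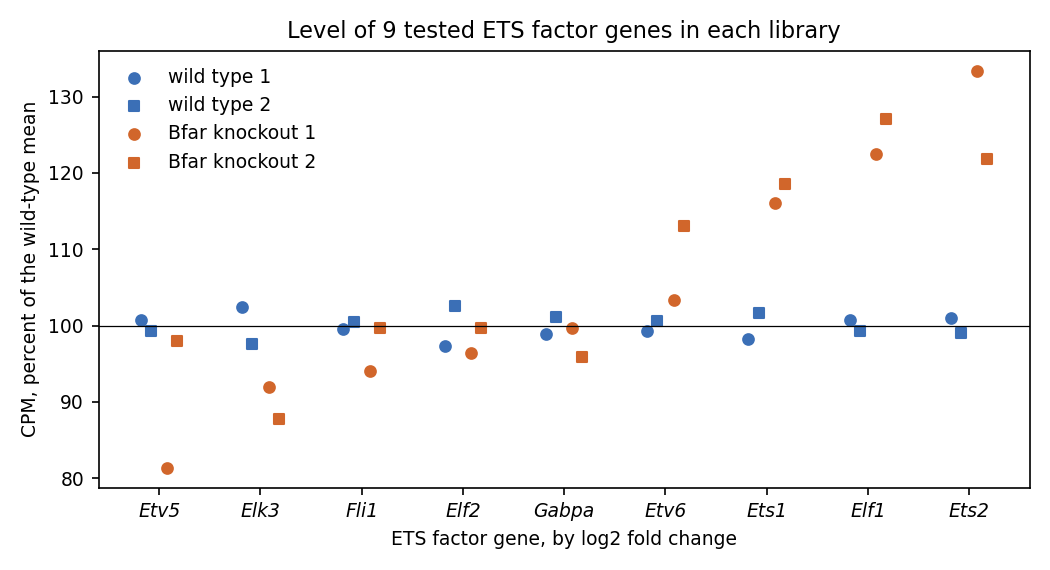
CPM of the 9 tested ETS factor genes in each library, as percent of the gene's wild-type mean (line at 100). Both knockout libraries lie at 116.1 to 133.4 percent for Ets1, Elf1 and Ets2, and at 91.9 and 87.7 percent for Elk3.

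The ETS1 and ETS2 pair, close relatives that ERK can phosphorylate, rose together. Ets1 had 599 and 620.0 CPM in wild type and 708 and 722 in the knockout. The knockout libraries were both above the wild-type libraries, with a log2 change of 0.23 ± 0.04 (SE, adjusted p = 0.000214 in edgeR). Ets2 (gene 23872, chromosome 16, 95702407 to 95721049) had 31.9 and 31.3 CPM in wild type and 42.1 and 38.5 in the knockout. Its log2 fold change of 0.35 ± 0.07 (adjusted p = 0.00101) was the highest among the members. Ets1 nevertheless stayed far above its relative, with a ratio of Ets1 to Ets2 in FPKM of 13.2 and 13.9 in wild type and 11.8 and 13.2 in the knockout.

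ELF1, an ETS factor of lymphocytes that acts at T cell genes, showed the smallest adjusted p. Elf1 (gene 13709, chromosome 14, 79481174 to 79582491) had 139.9 and 137.8 CPM in wild type and 170.1 and 176.5 in the knockout. Both knockout libraries were higher, and the log2 change was 0.32 ± 0.04 (edgeR adjusted p = 4.42e-05). Its relative Elf2 (gene 69257, chromosome 3, 51252720 to 51340683) had 59.7 and 62.9 CPM in wild type and 59.1 and 61.0 in the knockout, which overlap (-0.03 ± 0.05, adjusted p = 0.727). Elf4, a further relative, had 178.4 and 175.5 CPM in wild type and 184.4 and 181.0 in the knockout (0.05 ± 0.04, adjusted p = 0.411). Whether these fold changes differ from each other was not tested. The calls of Ets1, Ets2 and Elf1 held under all 10 alternatives, with adjusted p values of at most 0.0212, 0.0392 and 0.0127. Of 6 tested T cell markers 4 were called higher in the knockout (Cd3e, Cd3g, Cd4 and Cd28, by 0.20, 0.21, 0.23 and 0.34). Over all tested genes 13.6% were called higher. Lck (-0.05) and Cd3d (0.04) did not pass (edgeR adjusted p = 0.363 and 0.534). Summed marker levels were 791 and 798 FPKM in wild type and 880 and 854 in the knockout. The part of these markers in the rise of Ets1, Ets2 and Elf1 was not tested.

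The ternary complex factors, which bind beside serum response factor, did not share a direction. Elk3 (gene 13713, chromosome 10, 93247415 to 93311159), which can repress such promoters until ERK signals, had 202.1 and 192.4 CPM in wild type and 181.3 and 173.0 in the knockout. On the log2 scale it fell by 0.16 (SE 0.04, adjusted p = 0.0128 in edgeR), and the groups did not overlap. That call was lost without wild type replicate 1 (adjusted p = 0.144), Bfar knockout replicate 1 (0.0508) or Bfar knockout replicate 2 (0.164), when low counts were not filtered (0.0737), and on FPKM (0.0584 and 0.0565). Elk1, its relative, had 38.1 and 38.7 CPM in wild type and 47.6 and 43.7 in the knockout, a rise of 0.25 ± 0.06 (edgeR adjusted p = 0.00687) that was lost in DESeq2 (0.0995), with no filter (0.0515), with log2(FPKM + 1) (0.0505), and without wild type replicate 1 (0.0522) or Bfar knockout replicate 1 (0.0979). Elk4 had 55.4 and 51.1 CPM against 57.6 and 58.0 (0.12 ± 0.05, adjusted p = 0.121). The ratio of Elk1 to Elk3 in FPKM was 0.225 and 0.240 in wild type and 0.313 and 0.301 in the knockout.

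The 2 described Il9 activators did not pass the test or could not be tested, while Il9 itself had 536.7 and 505.0 CPM in wild type and 237.9 and 270.2 in the knockout. Etv5 (gene 104156, chromosome 16, 22381313 to 22439570) had 17.97 and 17.7 CPM in wild type and 14.5 and 17.5 in the knockout. Only Bfar knockout library 1 stood clearly lower, and the log2 difference was -0.16 ± 0.10 (edgeR adjusted p = 0.257). It was -0.03 without Bfar knockout replicate 1 and -0.30 without Bfar knockout replicate 2, so 1 library sets its size. In the GENCODE M21 transcripts, 30.6% of the 30-base words of Etv5 also occur in Gm4798, which is not analysed here. Reads from that copy could not be told from Etv5 reads in that stretch, and the Etv5 level is uncertain to that extent.

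Spi1 (gene 20375, chromosome 2, 91082374 to 91115759) had 3 and 2 expected counts in wild type and 1 and 5 in the knockout. In FPKM this was 0.10 and 0.07, and 0.04 and 0.18. With 5 counts over wild type and 6 over the knockout the gene was below the filter, and a difference between genotypes was not detectable at this depth. PU.1 target genes of myeloid and B cells were not all scarce, with Ncf1 at 29.85 to 32.98 FPKM and Csf2ra at 11.67 to 12.9 FPKM. Neither of these passed (edgeR adjusted p = 0.815 and 0.662). Of 16 such genes 8 were tested, and 12.5% were called, beside 26.8% of all tested genes: 1 rose and none fell. That gene was the integrin chain gene Itgb2, which T cells express too (474 and 493 CPM in wild type, 535 and 532 in the knockout, 0.14 ± 0.04, edgeR adjusted p = 0.00831), and its call was lost without wild type replicate 1 (0.11) or without Bfar knockout replicate 1 (0.0685) or 2 (0.0711). Of the B cell genes on that list, Btk (0.86 ± 0.31), Cd79a (1.0 ± 0.42) and Blnk (-0.57 ± 0.35) rested on at most 35 counts per library and did not pass (adjusted p = 0.0513, 0.0919 and 0.255). Of 10 markers of macrophages, monocytes and neutrophils, Itgam (0.01 to 0.05 FPKM) and Cd14 (at most 0.03 FPKM) were at or near 0 in all 4 libraries. Cd68 had 3.38 to 4.08 FPKM and Csf3r 0.16 to 0.33 FPKM, and neither passed (edgeR adjusted p = 0.389 and 0.897). Of 5 mast cell markers, Kit rose by 1.28 (0.25 to 0.68 FPKM, edgeR adjusted p = 0.000608), Ms4a2 had 3 and 1 counts in wild type and 0 in both knockout libraries, and Cpa3, Mcpt4 and Fcer1a had no value listed. Of 6 dendritic cell markers 3 were tested, with a median of -0.29. Xcr1 rose by 1.17 (0.22 to 0.58 FPKM, edgeR adjusted p = 0.00352), while Itgax had -0.95 and Zbtb46 had -0.29 and neither passed (adjusted p = 0.0726 and 0.41). Flt3, Siglech and Clec9a had at most 4 counts in any library, Clec9a 1 count in a single library. Their part in the values above was not tested. Spib, which encodes the close PU.1 relative SPIB, had more transcripts than Spi1, at 1.42 and 1.62 FPKM in wild type and 1.11 and 1.17 in the knockout (log2 -0.40 ± 0.17, adjusted p = 0.104).

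The other PEA3 group genes lay near Etv5 or below it. Etv4 had 11.3 and 10.8 CPM in wild type and 8.19 and 8.37 in the knockout. Both knockout libraries were lower, and Etv4 fell by 0.42 (log2, SE 0.11, adjusted p = 0.0111 in edgeR). The call was lost in DESeq2 (0.191) and without wild type replicate 1 (0.0732), Bfar knockout replicate 1 (0.074) or Bfar knockout replicate 2 (0.0713). Per length Etv4 (4.79 and 4.61 FPKM) was level with Etv5 (4.64 and 4.57 FPKM) in wild type, and the ratio of Etv4 to Etv5 went from 1.03 and 1.01 to 0.930 and 0.791 in the knockout. Etv1 had 7 to 14 counts per library (-0.83 ± 0.47, adjusted p = 0.207).

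The remaining members differed little. FLI1, an ETS factor of blood and endothelial cells, had transcript levels of 54.5 and 55.0 CPM in wild type and 51.5 and 54.6 in the knockout (gene 14247, chromosome 9, 32422204 to 32543432), and the groups overlapped (-0.05 ± 0.05, edgeR adjusted p = 0.557). Its relative Erg had 15.2 and 17.1 CPM in wild type and 13.4 and 10.2 in the knockout and fell by 0.45 (log2, SE 0.12, adjusted p = 0.0107 in edgeR). That call was lost in DESeq2 (0.0896), with no filter (0.104), on FPKM (0.0813 and 0.0763), and without wild type replicate 2 (0.0848) or Bfar knockout replicate 2 (0.189), where the value was -0.27. Of the endothelial and platelet markers, Itga2b stood at 0.23 to 0.39 FPKM, no value was listed for Cdh5 and Pf4, and Pecam1, which T cells can express, rose by 0.56 (edgeR adjusted p = 0.000111).

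Gabpa (gene 14390, chromosome 16, 84834891 to 84863783), the DNA-binding subunit of GABP, had 77.0 and 78.8 CPM in wild type and 77.6 and 74.7 in the knockout, with overlapping groups (-0.03 ± 0.05, edgeR adjusted p = 0.652). Etv6 (gene 14011, chromosome 6, 134035700 to 134270158), a transcriptional repressor also called TEL, had 140.8 and 142.7 CPM in wild type and 146.6 and 160.2 in the knockout. Both knockout libraries were higher, but the value of 0.11 ± 0.05 did not pass (adjusted p = 0.0809). It was 0.05 without Bfar knockout replicate 2 and 0.18 without Bfar knockout replicate 1 (adjusted p = 0.0425). The repressor genes Etv3 (0.14 ± 0.05, adjusted p = 0.0749) and Erf (-0.16 ± 0.07, adjusted p = 0.115) did not pass either, though Erf did without wild type replicate 2 (-0.25, adjusted p = 0.0267).

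Of 17 further ETS genes 14 were listed and 9 tested, of which Elk1 rose and Etv4 and Erg fell. That was 33.3% called, beside 26.8% of all tested genes. In DESeq2 none of these 9 passed, with 3 at an unadjusted p under 0.05, against 7 at that level in edgeR. In edgeR 1 passed without wild type replicate 1, Bfar knockout replicate 1 or Bfar knockout replicate 2. Spdef, Etv2, Elf3, Elf5 and Ehf, which act mainly outside T cells, had at most 2.3 expected counts in any library, and no value was listed for Spic, Etv3l and Fev. The 10 members held 72.9% to 76.0% of the summed FPKM of all listed ETS genes, and Ets1 alone held 30.4% to 34.4%.

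**Figure D3:**
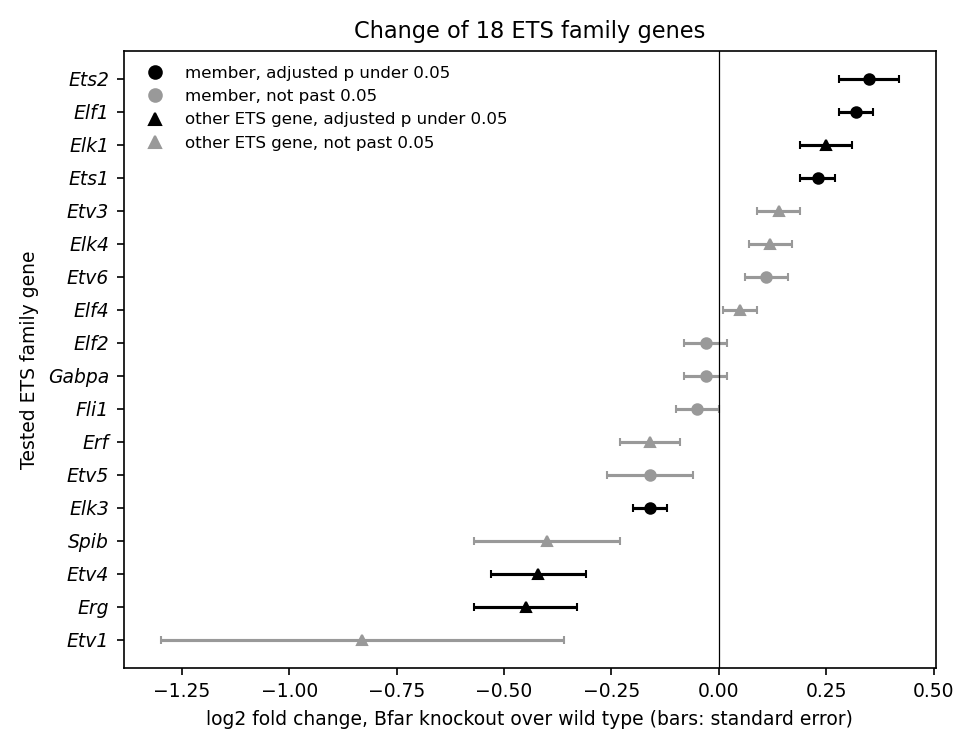
Log2 fold change, Bfar knockout over wild type, with its standard error for the 18 tested ETS family genes. Circles are the 9 tested genes of the 10 studied, triangles are other ETS genes, and black marks an edgeR adjusted p under 0.05. Ets2, Elf1, Elk1 and Ets1 lie at 0.23 to 0.35 and Etv4 and Erg at -0.42 and -0.45.

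Some of these genes overlap neighbours on the opposite strand, and no source used here gives the strand setting. Elk3 shares 6.36% of its 30-base words with Cdk17, Gabpa 5.57% with Atp5j, Elf1 4.47% with Wbp4 and Elf2 3.50% with 4930577N17Rik. None of these neighbours passed the test (log2 fold changes -0.04, -0.10, -0.13 and 0.45, edgeR adjusted p = 0.586, 0.169, 0.138 and 0.327). Elf1 also shares 3.53% of its words with Slc30a7 on the opposite strand (0.07, edgeR adjusted p = 0.391). The share found on the same strand in Gm6649, which is not analysed here, is also 3.53%, so the Elf1 level is uncertain to that extent. Whether the words shared with Slc30a7 and with Gm6649 are the same was not examined. No other gene shared 1% or more of the words of Ets1, Ets2, Fli1 or Spi1.

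The tables also list a length per gene, which is an average over transcripts where several are listed. Of the 5 members with several transcripts, Etv6 (5618 and 5621 bases in wild type, 5649 and 5633 in the knockout) and Elf1 (3940 and 3930, then 3952 and 3944) were listed longer in both knockout libraries. Elf2 (5633 and 5612, then 5592 and 5602) and Elk3 (4228 and 4229, then 4226 and 4224) were listed shorter, and the Ets1 values overlapped. The mean differences were 21.3, 13.0, -25.7 and -4.0 bases, under 0.5% of the length in each. Over the 4095 tested genes with several transcripts, lengths did not overlap between genotypes for 31.0%, and the median absolute difference was 5.5 bases. No test was run on the lengths.

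Genes that work with or downstream of ETS factors were read from the same fit, as 5 lists. Counts of called genes on these lists are to be read against the 26.8% over all tested genes. Of 17 tested partners (cofactors, kinases and transcription factors that act with ETS proteins) 6 rose and 6 fell, with a median of -0.00. Runx3, a RUNX factor that binds DNA beside ETS1 in T cells, had 188 and 186 CPM in wild type and 243 and 259 in the knockout (0.42 ± 0.04, edgeR adjusted p = 2.72e-06). Junb, an AP-1 subunit, rose by 0.18 ± 0.03 (adjusted p = 0.00128), and Mapk3, which encodes the kinase ERK1, by 0.21 ± 0.04 (adjusted p = 0.00237, 0.0516 without Bfar knockout replicate 2). Irf8, a partner of PU.1, fell by 0.19 (SE 0.04, adjusted p = 0.00365, 0.0551 with no filter and 0.0958 without Bfar knockout replicate 2). The 12 partner genes called became 5 without wild type replicate 1, 7 without wild type replicate 2, 5 without Bfar knockout replicate 1 and 3 without Bfar knockout replicate 2.

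Of 21 tested genes that respond to ERK signalling 5 rose and 6 fell (median -0.05). Those that fell were Ccnd1 (-0.61), Phlda1 (-0.27), Egr2 (-0.24), Spred1 (-0.24), Ier2 (-0.15) and Srf (-0.13). Their edgeR adjusted p values were 0.00379, 0.0046, 0.00748, 0.0105, 0.0152 and 0.0487. Most falls were not called in every alternative. In DESeq2, with no filter or with log2(FPKM + 0.1), 5 genes of this list were called, 4 of them higher. With log2(FPKM + 1) it was 6, 5 of them higher. RLE factors gave 11, 5 of them higher, and the replicate block 14, 7 of them higher. The phosphatase genes Dusp5 (117 and 117 CPM, then 178 and 174) and Dusp4 rose by 0.59 ± 0.04 and 0.29 ± 0.04, Spred2, an inhibitor of the pathway, by 0.44 ± 0.05, and Ier3 by 0.48 ± 0.07 (edgeR adjusted p = 6.78e-08, 4.48e-05, 1.96e-05 and 0.000119). An antisense transcript not analysed here shares 21.2% of the words of Dusp5, so its value is uncertain to that extent. Dusp6, a feedback gene often read beside the PEA3 group, had 0.14 ± 0.05 and did not pass (adjusted p = 0.0799). The 11 genes called became 5 without wild type replicate 1 or Bfar knockout replicate 2.

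Of 30 tested Il9 regulators other than ETS factors 6 rose and 7 fell (median -0.00). Stat3, Hif1a and Bhlhe40 rose by 0.43 ± 0.04, 0.38 ± 0.04 and 0.37 ± 0.03, and Ezh2, a histone methyltransferase gene, fell by 0.23 (SE 0.04, edgeR adjusted p = 0.000913). The 13 regulators called became 8 without wild type replicate 1, 7 without wild type replicate 2, 8 without Bfar knockout replicate 1 and 6 without Bfar knockout replicate 2. Of 12 described targets of GABP 3 rose and 1 fell (median -0.05). Il7r, the interleukin 7 receptor gene, had 12.9 and 12.4 CPM in wild type and 32.2 and 32.9 in the knockout (1.36 ± 0.08, edgeR adjusted p = 1.26e-08), and Utrn, which encodes utrophin, rose by 0.33 ± 0.04. Polrmt, the mitochondrial RNA polymerase gene, fell by 0.21 (SE 0.06, adjusted p = 0.0158), and this was lost in 7 of 10 alternatives. Itgb2 stands on this list too. Tfam, Tfb1m and Tfb2m, which encode mitochondrial transcription factors, did not pass. The 4 GABP targets called became 2 without wild type replicate 1, Bfar knockout replicate 1 or Bfar knockout replicate 2.

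**Figure D4:**
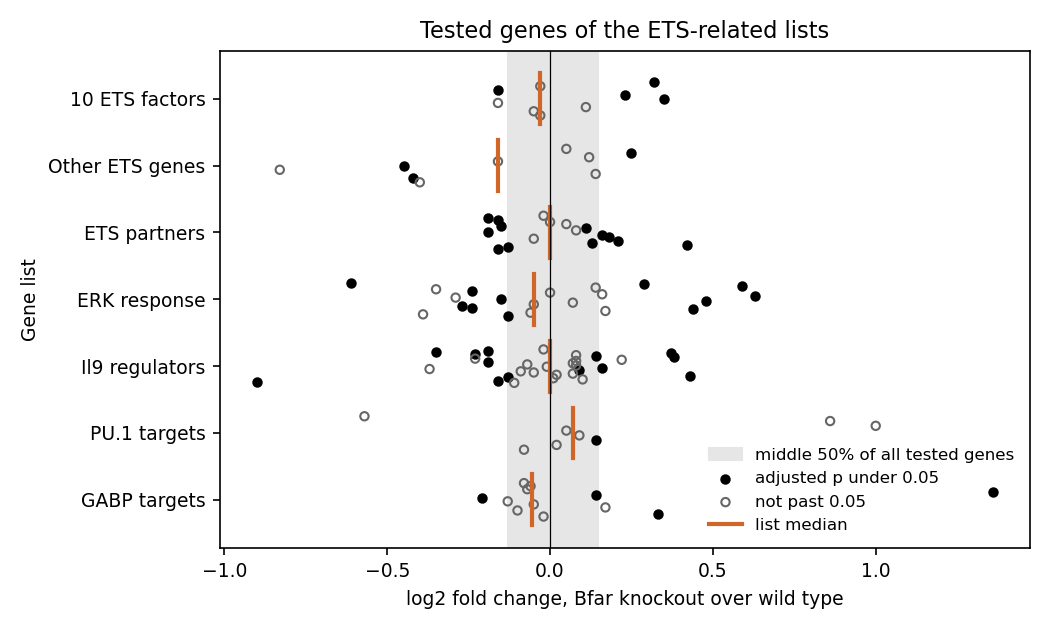
Log2 fold change, Bfar knockout over wild type, of each tested gene in 7 lists, with the list median as a bar and the middle 50% of all tested genes (-0.13 to 0.15) shaded. Filled points passed an edgeR adjusted p of 0.05. Called genes lie on both sides of 0 in 6 of the 7 lists, the exception being the PU.1 targets with 1 called gene.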

How the data were processed

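Per the submitters' processing notes, Bowtie and RSEM were used with the build GRCm38 (mm10), no versions given. The deposited tables hold, per the file headers, the expected count, the FPKM and the length of every listed gene, and the FPKM scaling was the authors'. Strand setting and read filters were not found in those notes. A gene absent from a table was set to 0 there.

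For testing, expected counts were rounded and fitted in edgeR 4.0.16 (R 4.3.3; quasi-likelihood, two-sided), with TMM factors, genotype as the only factor, and genes kept by filterByExpr at its defaults (count 10, total 15). P-values were Benjamini-Hochberg adjusted over 12677 genes, with a threshold of 0.05. The standard error is the absolute log2 fold change over the square root of F. The procedure was tested on simulated data. No pair of libraries looked like duplicates (chi-square per degree of freedom at least 2.19). Alternatives were DESeq2 1.42.0, RLE factors, no filter, limma 3.58.1 on log2(FPKM + 0.1) and log2(FPKM + 1), a replicate block, and leaving out each library. Every ETS gene is named, with up to 4 genes of each list by smallest adjusted p. Dusp6, the ERK response genes that fell, Ncf1, Csf2ra, Tfam, Tfb1m, Tfb2m and the markers were named after their values were seen. The members and lists were chosen with earlier results of these data known. Shared sequence was counted in GENCODE M21 transcripts, and gene coordinates are RefSeq's on GRCm38.p6.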

Additional observations from a re-analysis of the deposited data

How the results depend on the processing

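Ets1, Ets2 and Elf1 kept their direction and their call in all 10 alternatives, and the members called numbered 3 to 5. Elk3 passed in 4 of the 10. It had -0.15 with no filter on low counts (adjusted p = 0.0737) and -0.16 with log2(FPKM + 0.1) (0.0584) or log2(FPKM + 1) (0.0565), and between -0.19 and -0.12 when 1 library was left out. Etv6 ranged from 0.05 to 0.18 without 1 library. Elf2 ranged from -0.07 to 0.01, the last without wild type replicate 2, and was called nowhere. The count of genes called across the transcriptome, 3398, became 1569 in DESeq2, 1928 with no filter, and 1441 to 2355 without 1 library. The 3 other ETS genes called became 0 in DESeq2, 1 with no filter, 1 with log2(FPKM + 1), and 1 to 3 without 1 library. Over the 5 lists together 36 of 81 tested genes were called, against 22 in DESeq2, 18 with no filter, 23 with log2(FPKM + 0.1), and 15 to 25 without 1 library. The count over all genes fell by more than 1.5 times without wild type replicate 1 (2139), Bfar knockout replicate 1 (1894) or Bfar knockout replicate 2 (1441). The cause of these shifts was not tested, except that leaving out a library leaves fewer samples. The 36 of 81 genes called on the 5 lists are to be read beside 26.8% of all 12677 tested genes. The lists were chosen with earlier results of these data known. Whether they hold more called genes than other lists of that size was not tested. The share of Ets1 was 31.1% in wild type and 34.1% in the knockout when all listed ETS genes were summed. The replicate numbers share no stated origin, and deviations of same-numbered libraries correlated at 0.00673 over 12677 genes. With the replicate block 3952 genes, 5 members (Etv6 with 0.11, adjusted p = 0.0319) and 4 other ETS genes (Erf added, 0.00686) were called. Depth limits Spi1, Etv1 and the 5 other ETS genes below the filter.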
